A study of Mus musculus with 6 samples.

Results

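The genes described here are 37 genes that mark blood and lymphatic endothelium or encode the growth factors that act on it, read in mouse carotid body and adrenal medulla. They were taken from a list by symbol: 24 pan-endothelial genes, of which 8 form a core set, 1 barrier gene, 2 genes of fenestrated or tip endothelium, 2 arterial genes, 4 lymphatic genes and 4 ligands. A gene counted as measured where a probe set was annotated to its symbol alone, and the probe set brightest over the 6 arrays stood for it. All 37 were measured, out of 18193 genes read in the same way.

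Carotid body, the oxygen-sensing organ beside the carotid artery, was set against adrenal medulla, the chromaffin tissue inside the adrenal gland. Both came from untreated adult mice of strain C57/BL6. Each of 3 cohorts gave 1 array per tissue, so that each array is a pool of 18 carotid bodies or of 10 adrenal medullas from 10 mice. RNA was labelled with a 3' IVT kit and read on Affymetrix arrays as 1 log2 intensity per probe set, and the values carry no detection calls.

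Endothelial cells line all vessels and share an adhesion and transcription programme, which includes the junctional cadherin Cdh5, the adhesion molecule Pecam1 and the Ets factor Erg. On top of it they differ by vessel. Barrier endothelium seals its junctions with claudins, fenestrated endothelium of endocrine glands carries Plvap in the diaphragms of its pores, arterial endothelium uses Notch and SoxF factors, and lymphatic endothelium is specified by Prox1 and kept growing by VEGF-C acting on Flt4. Both organs are densely supplied with capillaries.

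The arrays themselves differed in ways that touch the values below. Medians over probe sets were 5.25 to 5.32 on the carotid body arrays and 5.16 to 5.18 on the adrenal medulla arrays. Correlations between arrays of 1 tissue were 0.978 to 0.984 on the carotid body arrays and 0.991 to 0.995 on the adrenal medulla arrays. The adrenocortical gene Star read 12.06, 3.85 and 3.81 on carotid body arrays 1, 2 and 3, against 13.52 to 13.95 in adrenal medulla, so that carotid body array 1 and all adrenal medulla arrays held RNA of adrenal cortex. Xist, the X-inactivation transcript, read 8.84 to 10.96 on the carotid body arrays and 4.45 to 5.60 on the adrenal medulla arrays. A different mix of sexes in the pools therefore cannot be told apart from tissue, for X-linked genes or any others. The tissues differed in Xist within each cohort too, so cohort pairs do not remove this limit. The 3' minus 5' difference of the Gapdh control probe sets was 1.45, 1.04 and 0.59 on the carotid body arrays and 0.51, 0.13 and 0.61 on the adrenal medulla arrays.

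Most of the 37 genes were brighter in carotid body. A gene was called when limma's adjusted p, by Benjamini-Hochberg over all 45037 probe sets, was under 0.05 and the difference was at least 2-fold. By that rule 16 of the 37 were higher in carotid body and 2 were lower, where 5.91% of all 18193 genes were called higher and 6.08% lower. On the adjusted p alone, 25 were higher and 2 lower, against 10.9% and 16.5% of all genes. The 3 carotid body arrays lay above the 3 adrenal medulla arrays without overlap for 28 genes and below them for 2, against 17.8% and 26.1% of all genes. The median difference, carotid body minus adrenal medulla, was 0.97 on the log2 scale over the 37 genes and -0.04 over all genes. The span ran from -3.50 for Prox1 to 3.97 for Cldn5. In pooled tissue, more endothelial cells and more RNA per endothelial cell cannot be told apart, which holds for each difference given here.

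**Figure D1:**
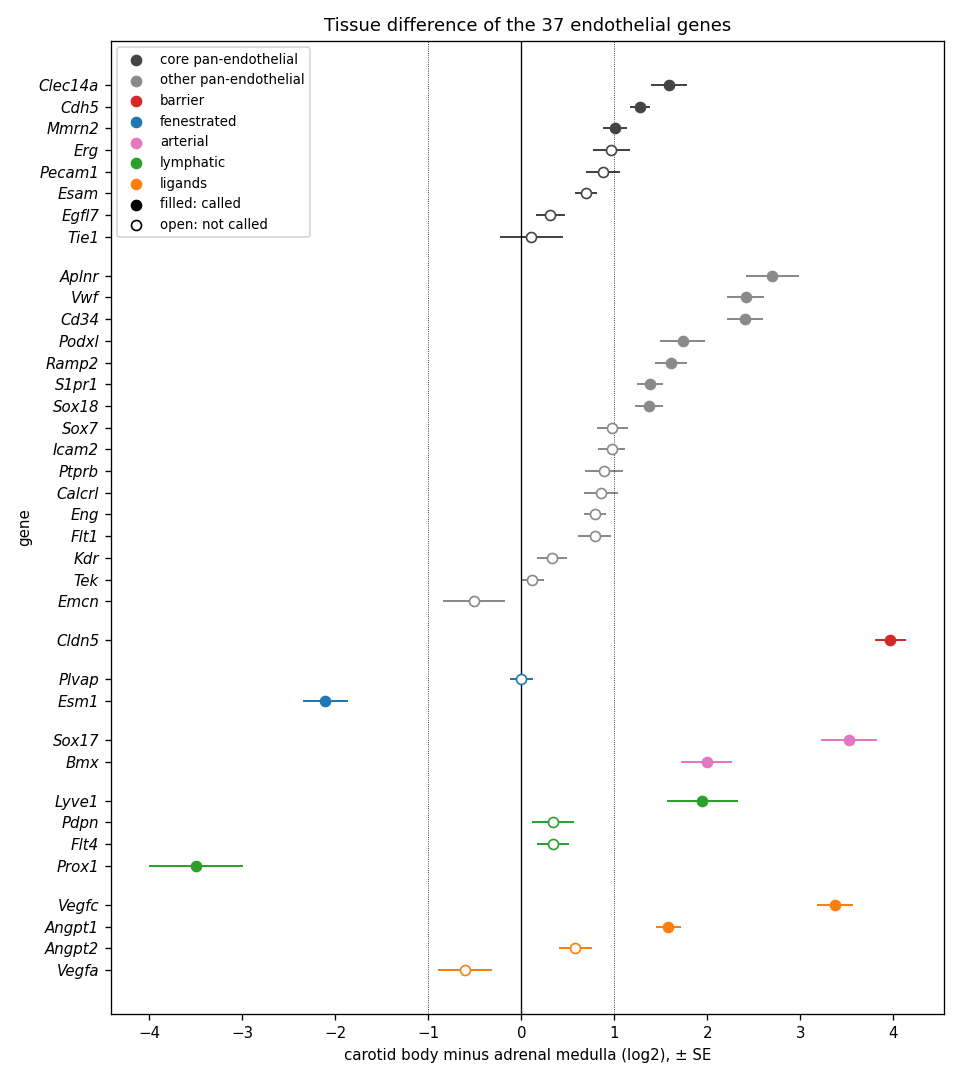
Difference between carotid body and adrenal medulla (log2, x axis) for each of the 37 genes (y axis), coloured by class, with bars of 1 standard error and dotted lines at a 2-fold difference. Filled points are called: 16 lie to the right, from Mmrn2 at 1.01 to Cldn5 at 3.97, and Esm1 and Prox1 lie to the left.

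Of the 8 core genes of blood endothelium, 3 were called higher in carotid body and none lower, and 6 were higher on the adjusted p alone. Clec14a, a lectin-like glycoprotein of endothelial cells, read 8.33, 8.39 and 9.02 on the carotid body arrays and 6.85, 7.02 and 7.09 on the adrenal medulla arrays. It was the core gene with the largest difference, 1.59 ± 0.20 (SE), with limma's adjusted p = 0.00131. Cdh5, the cadherin of endothelial junctions, read 8.36, 8.54 and 8.47 on the carotid body arrays and 7.20, 7.12 and 7.21 on the adrenal medulla arrays, 2.42-fold higher (adjusted p = 0.000278). Neither gene's tissues overlapped. The other Cdh5 probe set read 4.25 ± 0.11 on the carotid body arrays and 4.24 ± 0.10 on the adrenal medulla arrays (SD, n = 3 each), near the floor of the scale, and was not called. Mmrn2, a matrix glycoprotein that binds Clec14a, averaged 10.32 ± 0.20 on the carotid body arrays and 9.31 ± 0.02 on the adrenal medulla arrays, a 2.01-fold difference that lies just inside the threshold of size (adjusted p = 0.00168).

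Just outside that threshold lay Erg, at 0.97 with an adjusted p of 0.0113, and Pecam1, at 0.88 with an adjusted p of 0.0109. Pecam1 read 8.11, 8.36 and 8.74 on the carotid body arrays and 7.39, 7.69 and 7.49 on the adrenal medulla arrays. Esam, a junctional adhesion molecule, differed by 0.70 (adjusted p = 0.00578). All 3 were brighter on every carotid body array than on any adrenal medulla array, by less than 2-fold. The remaining core genes did not pass the test. Egfl7, a secreted endothelial matrix protein, differed by 0.31 (adjusted p = 0.214), with 4 probe sets that ran from -0.30 to 0.58. Tie1, an orphan receptor of the Tie family, read 6.38, 7.07 and 6.87 on the carotid body arrays and 6.70, 7.33 and 5.97 on the adrenal medulla arrays, so that the tissues overlapped and the interval of the difference, -0.68 to 0.89, held 0.

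Averaged over the 8 core genes, endothelial signal was 8.57, 8.74 and 8.92 on the carotid body arrays and 7.82, 8.02 and 7.83 on the adrenal medulla arrays. The tissue means were 8.74 ± 0.17 and 7.89 ± 0.11 (SD, n = 3 each), 0.85 apart. This core level serves below as a yardstick: it was subtracted on each array and the fit was repeated, to ask which genes differed by more or less than the core did. Subtraction moved the median of all genes to -0.89, so most genes of the array fall below the core by construction. In that fit 2.35% of all genes were called above the core and 39.3% below it. The core genes themselves were not read in it, which leaves 29 genes.

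On their brightest probe sets, Kdr, Tek, Flt1, Eng and Ptprb, membrane proteins of VEGF, angiopoietin and TGF-beta signalling, followed the core or stayed under it. Kdr, the main signalling receptor for VEGF-A, read 9.33, 9.59 and 9.66 on the carotid body arrays and 9.39, 9.27 and 8.92 on the adrenal medulla arrays. Its ranges overlapped, and its difference was 0.33 with an interval of -0.04 to 0.71 (adjusted p = 0.189). Tek, the angiopoietin receptor, read 9.29, 9.26 and 9.26 on the carotid body arrays and 9.29, 9.19 and 8.97 on the adrenal medulla arrays, a difference of 0.12 with an interval of -0.16 to 0.40 (adjusted p = 0.545). For both genes the interval of the difference held 0. Relative to the core, Kdr stood at -0.52 (adjusted p = 0.0196) and Tek at -0.73 (adjusted p = 0.00319), both less than 2-fold below it.

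Flt1, the VEGF receptor that mainly acts as a trap for the ligand, differed by 0.79 ± 0.18 (SE, adjusted p = 0.0158), under 2-fold on its brightest probe set. Of its other 3 probe sets 2 were called higher, at 1.17 and 1.08. Eng, the coreceptor endoglin, differed by 0.79 with an adjusted p of 0.00301. Ptprb, the phosphatase that restrains Tek, differed by 0.89 (adjusted p = 0.0176) on its brightest probe set. Another Ptprb probe set, nearly as bright, was called higher at 1.27 (adjusted p = 0.000637), and a dim one at 0.38 was not called. Relative to the core, on the brightest probe sets, Flt1 stood at -0.06, Eng at -0.06 and Ptprb at 0.03. Each was less than its standard error of 0.22, 0.18 and 0.25.

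Receptors for peptides and lipids lay higher in carotid body. Aplnr, the apelin receptor, enriched in venous and sprouting endothelium, read 9.93, 10.68 and 10.09 on the carotid body arrays and 7.37, 8.07 and 7.16 on the adrenal medulla arrays. It was 6.50-fold higher (adjusted p = 0.000612), and both of its probe sets were called. Ramp2, the accessory protein that turns Calcrl into an adrenomedullin receptor, averaged 9.98 ± 0.22 on the carotid body arrays and 8.38 ± 0.26 on the adrenal medulla arrays (SD, n = 3 each), 3.05-fold higher (adjusted p = 0.000728). Its partner Calcrl differed by 0.86 (adjusted p = 0.014), under 2-fold and at the core level. S1pr1, the receptor for sphingosine 1-phosphate that stabilises junctions, read 8.01, 7.95 and 7.93 on the carotid body arrays and 6.56, 6.82 and 6.37 on the adrenal medulla arrays, a difference of 1.38 ± 0.14 (SE, adjusted p = 0.000539). Of these receptors Aplnr alone was called above the core, by 1.85 (adjusted p = 5.97e-05).

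Among surface and secreted markers, Cd34 and Vwf stood out. Cd34, a sialomucin of capillary endothelium, read 9.97, 10.63 and 10.50 on the carotid body arrays and 8.09, 8.03 and 7.77 on the adrenal medulla arrays, 5.29-fold higher (adjusted p = 0.00021). Vwf, von Willebrand factor, which endothelium stores in Weibel-Palade bodies, read 9.36, 9.47 and 9.05 on the carotid body arrays and 6.50, 7.06 and 7.09 on the adrenal medulla arrays, 5.32-fold higher (adjusted p = 0.000223). Both exceeded the core, Cd34 by 1.55 and Vwf by 1.56, and the tissues did not overlap for either. Neither gene is made by endothelium alone: Cd34 also marks fibroblasts and Vwf is also made by megakaryocytes. Of 12 fibroblast markers 11 were called higher in carotid body, with a median of 3.06 and a summed intensity of 50467 to 58383 against 7345 to 9166 in adrenal medulla. Of 8 platelet markers 1 was called, Pf4 at 2.44, with a summed intensity of 1235 to 1514 on the carotid body arrays and 489 to 526 on the adrenal medulla arrays. Their part in the Cd34 and Vwf differences was not tested.

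Podxl, a relative of Cd34, was 3.32-fold higher (adjusted p = 0.00215) on its brighter probe set, while its dimmer one differed by 0.21 and was not called. Icam2, an adhesion molecule for leukocytes, differed by 0.97 (adjusted p = 0.00337), just under 2-fold. Emcn, the sialomucin endomucin of capillaries and veins, went the other way in 2 of 3 cohorts. It read 8.44, 9.21 and 9.74 on the carotid body arrays and 9.66, 10.02 and 9.24 on the adrenal medulla arrays, a difference of -0.51 with an interval of -1.29 to 0.27 (adjusted p = 0.332). Emcn was the 1 gene of the 24 pan-endothelial genes with a negative difference, and it was called below the core, at -1.37 (adjusted p = 0.000499).

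The SoxF factors, which drive endothelial and arterial identity, were brighter in carotid body to different degrees. Sox17, the arterial member, read 10.02, 10.40 and 10.04 on the carotid body arrays and 7.35, 6.43 and 6.11 on the adrenal medulla arrays. Its difference of 3.53 ± 0.30 (SE) was 11.5-fold (adjusted p = 0.000278). Sox18 differed by 1.37 ± 0.15 (adjusted p = 0.000763) and Sox7 by 0.98 ± 0.16 (adjusted p = 0.00496), so that Sox7 lay just under the threshold of size. The interval of Sox17, 2.82 to 4.23, lay above those of Sox18, 1.02 to 1.72, and Sox7, 0.60 to 1.36. Relative to the core, Sox17 was called above at 2.67, while Sox18 stood at 0.52 and Sox7 at 0.12.

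**Figure D2:**
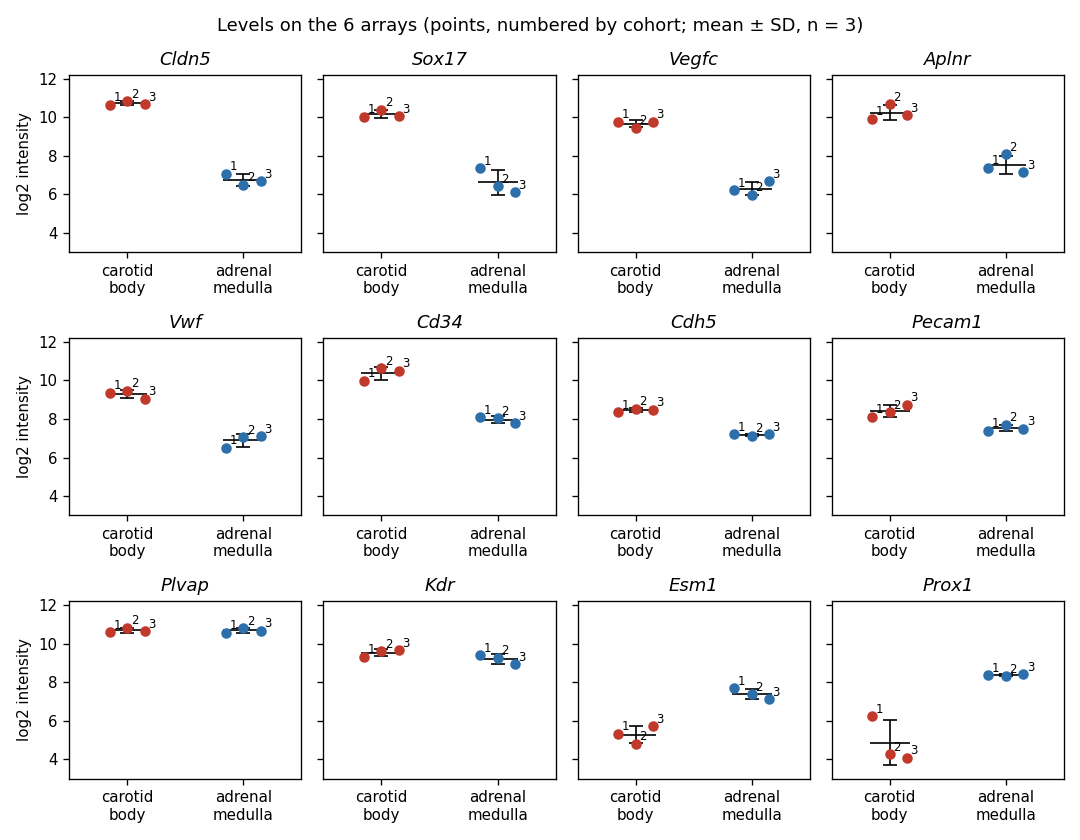
Log2 intensity (y axis) of 12 of the genes on the 3 carotid body arrays, left in each panel, and the 3 adrenal medulla arrays, right, numbered by cohort, with mean and SD. Cldn5, Sox17, Vegfc, Aplnr, Vwf and Cd34 separate the tissues without overlap, Plvap and Kdr overlap, and Esm1 and Prox1 are lower in carotid body.

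Promoter sequences were at hand in the RefSeq table of GRCm38.p6 for 19 of the 37 genes. Shown here are the 250 bases upstream of the start of 4 genes with unlike results, all on the plus strand and written 5′ to 3′: Cldn5 and Cd34, higher in carotid body, Tek, not called, and Esm1, lower. Capitals mark TTCCTG, the reverse complement of CAGGAA, which is the form of the Ets motif found in the Cd34, Tek and Esm1 windows. No capitals appear in the Cldn5 window.
Cldn5, chr16:18776597-18776846: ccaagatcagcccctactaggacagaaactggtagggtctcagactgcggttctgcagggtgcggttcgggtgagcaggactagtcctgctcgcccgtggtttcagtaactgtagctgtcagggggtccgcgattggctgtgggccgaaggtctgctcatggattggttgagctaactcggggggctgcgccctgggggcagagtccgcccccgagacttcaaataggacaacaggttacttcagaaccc
Cd34, chr1:194938571-194938820: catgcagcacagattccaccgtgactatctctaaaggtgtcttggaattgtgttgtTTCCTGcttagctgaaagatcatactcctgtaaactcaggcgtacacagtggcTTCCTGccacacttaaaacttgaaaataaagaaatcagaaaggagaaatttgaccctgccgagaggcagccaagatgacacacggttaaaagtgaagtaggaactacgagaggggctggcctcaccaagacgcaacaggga
Tek, chr4:94739039-94739288: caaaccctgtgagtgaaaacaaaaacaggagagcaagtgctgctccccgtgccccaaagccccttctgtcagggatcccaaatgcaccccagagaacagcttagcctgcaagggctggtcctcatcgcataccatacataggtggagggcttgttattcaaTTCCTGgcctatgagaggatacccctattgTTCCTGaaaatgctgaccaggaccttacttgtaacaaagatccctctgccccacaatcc
Esm1, chr13:113209409-113209658: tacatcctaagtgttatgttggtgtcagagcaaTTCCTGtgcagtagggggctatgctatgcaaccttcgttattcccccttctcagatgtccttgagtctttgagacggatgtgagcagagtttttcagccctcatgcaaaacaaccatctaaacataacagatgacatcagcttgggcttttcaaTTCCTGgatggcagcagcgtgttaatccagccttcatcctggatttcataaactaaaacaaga

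Searched on both strands, CAGGAA lay in the window of 11 of the 19 genes and CCGGAA in that of 1, Kdr. Over all 27025 genes of the promoter table, 28.31% held CAGGAA and 13.59% held CCGGAA. Both motifs hold the letters GGAA, the centre of Ets sites. Cd34, Tek and Esm1 hold 2 matches each, so that genes with matches were higher, not called and lower in carotid body. A match of 6 letters is a description of the sequence and no evidence of binding.

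Cldn5, the claudin that closes the tight junctions of barrier endothelium, showed the largest difference of the 37 genes. It read 10.64, 10.84 and 10.68 on the carotid body arrays and 7.08, 6.49 and 6.69 on the adrenal medulla arrays. That is 10.72 ± 0.10 against 6.75 ± 0.30 (SD, n = 3 each), a 15.7-fold difference (adjusted p = 1.73e-05) with an interval of 3.58 to 4.36 on the log2 scale. The interval overlaps those of Sox17, 2.82 to 4.23, and Vegfc, 2.92 to 3.82, so the order of these 3 is not settled beyond their errors. Relative to the core, Cldn5 stood 3.11 above (adjusted p = 1.15e-06).

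The wider set of barrier genes did not follow Cldn5 as a whole. Of 28 listed, 25 were measured, 6 were higher and 1 was lower in carotid body, with a median of 0.29. Over all genes 5.91% were called higher and 6.08% lower, the shares to set beside the counts of this and every other list. Cldn5 is 1 of the 6. Lef1, a transcription factor of Wnt signalling, read 9.89, 10.57 and 10.61 on the carotid body arrays and 7.22, 6.67 and 6.43 on the adrenal medulla arrays (adjusted p = 0.00014). Apcdd1, a Wnt inhibitor and Wnt target in brain endothelium, differed by 2.81 (adjusted p = 0.00674), and by 3.47 without adrenal medulla array 1, which read 8.05 where the others read 6.22 and 5.96. Its call was lost without cohort 2, at 2.41 (adjusted p = 0.122), and another Apcdd1 probe set differed by 0.0070. Jam2, a junctional adhesion molecule, differed by 2.39 on its brightest probe set, by 0.99 on the mean of its probe sets, which ended the call, and by -0.02 on another. Slc7a5, a transporter of large neutral amino acids, was lower at -2.31 (adjusted p = 0.000131). All 4 are also used by cells other than endothelium.

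Transporters known from the blood-brain barrier went in several directions, and those named here were singled out after their values were seen, apart from Slc7a5. Slc16a1, a monocarboxylate transporter, was called higher at 1.67 (adjusted p = 0.00141), although the mean of its probe sets was under 2-fold at 0.92. Slc2a1, the glucose transporter, differed by 0.60 (adjusted p = 0.0167) and Abcb1a, an efflux pump, by 0.55 (adjusted p = 0.0079). Mfsd2a, the lipid transporter that limits transcytosis, read 5.03 to 5.40 on the carotid body arrays and 5.26 to 5.49 on the adrenal medulla arrays (adjusted p = 0.604). These values are near the array medians in both tissues, so that a low signal cannot be told from none. Slc2a1, Abcb1a and Mfsd2a did not reach 2-fold.

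Of the fenestrated genes, Plvap had the smallest difference of the 37. It read 10.59, 10.82 and 10.64 on the carotid body arrays and 10.56, 10.81 and 10.67 on the adrenal medulla arrays. The means were 10.68 ± 0.12 in both (SD, n = 3 each), and the difference had an interval of -0.29 to 0.29 (adjusted p = 0.996). Relative to the core, Plvap stood at -0.86 (adjusted p = 0.00104), short of 2-fold.

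Esm1, endocan, a proteoglycan secreted by VEGF-stimulated tip cells, was lower in carotid body. It read 5.31, 4.82 and 5.71 on the carotid body arrays and 7.68, 7.38 and 7.11 on the adrenal medulla arrays, a 4.31-fold difference (adjusted p = 0.00101) with no overlap. It stood -2.96 from the core. The carotid body values are near the array median of 5.25 to 5.32, so that a low signal there cannot be told from none.

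Several caveolar genes, read in the same list as the fenestrated ones, were higher in carotid body. All 16 listed genes were measured, of which 6 were higher and 2 lower, with a median of 0.14. Cav1, the coat protein of caveolae, read 12.18, 12.65 and 12.35 on the carotid body arrays and 9.01, 8.29 and 8.05 on the adrenal medulla arrays, a difference of 3.94 (adjusted p = 8.17e-05). The caveolar proteins Cavin2, Ehd2 and Cavin1 differed by 1.98, 1.94 and 1.70, though on the mean of its probe sets Cavin1 was at 0.66 and not called. Caveolae are also dense in smooth muscle and fibroblasts. Of 16 smooth muscle and pericyte markers 14 were called higher, with a median of 2.23 and a summed intensity of 45498 to 51809 in carotid body against 7930 to 11400 in adrenal medulla, and their part in the caveolar values was not tested. Besides Esm1, Ehd3 was lower, at -1.10 (adjusted p = 0.00625), which became -0.89 and was no longer called without adrenal medulla array 2, and likewise -0.96 without cohort 2. Gpihbp1, the capillary anchor of lipoprotein lipase, was singled out after its values were seen and differed by -0.09 (adjusted p = 0.752).

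Most arterial genes were higher in carotid body. Besides Sox17, the second arterial gene among the 37 is Bmx, a cytosolic kinase of arterial endothelium. Bmx read 5.39, 5.55 and 6.51 on the carotid body arrays and 3.73, 3.92 and 3.82 on the adrenal medulla arrays, 3.98-fold higher (adjusted p = 0.00221). It is X-linked, and the adrenal medulla values lie near the floor. It stood 1.14 above the core (adjusted p = 0.000731). Both arterial genes were thus called above the core.

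In the wider arterial list of 20 genes 14 were higher, none was lower, and the median was 1.65. Jag1, a Notch ligand, read 11.06, 11.01 and 11.08 on the carotid body arrays and 7.83, 7.66 and 7.70 on the adrenal medulla arrays (adjusted p = 7.7e-06). Another Jag1 probe set differed by 0.29 and was not called. Sema3g, a semaphorin of arterial endothelium, differed by 3.16 (adjusted p = 0.00132), or 3.80 without cohort 1, and Edn1, endothelin 1, by 2.36. Genes often used to define arteries were not all called, and those that follow were singled out after their values were seen. The gap junction gene Gja4 was higher by 2.14, the ephrin ligand Efnb2 by 1.67, the Notch targets Hey2 and Hey1 by 1.65 and 1.41, and the receptor Notch1 by 1.24, all called. On the mean of their probe sets Efnb2, at 0.69, and Notch1, at 0.92, lost the call, and another Efnb2 probe set differed by -0.06. Without cohort 2 Hey1 kept its size, at 1.41, but lost its call (adjusted p = 0.0524). Another gap junction gene, Gja5, read 3.53 to 3.64 on the carotid body arrays and 3.56 to 3.80 on the adrenal medulla arrays, near the floor in both, and the Notch ligand Dll4 differed by -0.07 (adjusted p = 0.834). Jag1 and Edn1 are also made by other cells, smooth muscle and epithelium among them.

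Of 15 venous genes measured, 7 were higher in carotid body and none lower, with a median of 0.79. Aplnr and Vwf, described above, are 2 of the 7. Selp, P-selectin, which recruits leukocytes in venules, read 6.77, 6.93 and 6.90 on the carotid body arrays and 5.04, 4.58 and 4.42 on the adrenal medulla arrays (adjusted p = 0.000207). Ackr1, the chemokine-binding receptor of venules, differed by 1.69 (adjusted p = 0.00152). Selp is also made by platelets, whose markers were given with Vwf. Ephb4, the ephrin receptor of veins, singled out after its values were seen, differed by 0.19 (adjusted p = 0.419).

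**Figure D3:**
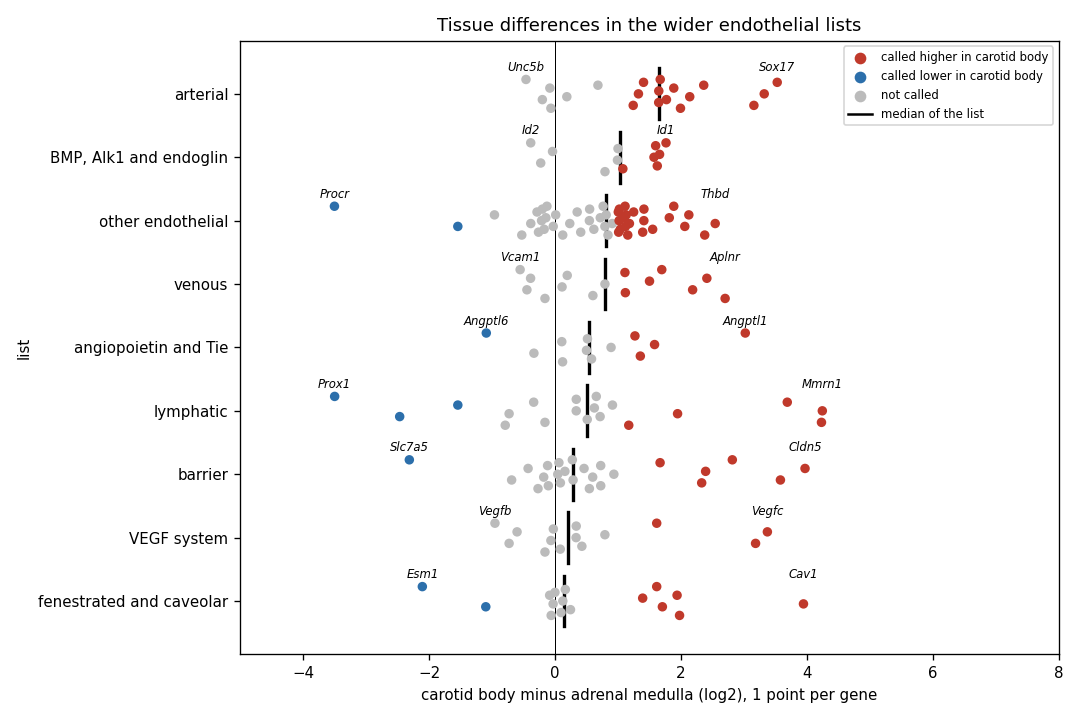
Differences between carotid body and adrenal medulla (log2, x axis) of the genes in 9 wider endothelial lists (y axis), with 1 point per gene, red when called higher, blue when called lower and grey when not called; the bar is the median. Medians run from 0.14 for the fenestrated and caveolar list to 1.65 for the arterial list.

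Other endothelial genes, 49 measured of 52 listed, gave 22 higher and 2 lower with a median of 0.81. Without cohort 2 the counts were 14 and 1. Thbd, thrombomodulin, which turns thrombin to an anticoagulant, read 11.13, 11.15 and 11.12 on the carotid body arrays and 8.62, 8.53 and 8.62 on the adrenal medulla arrays (adjusted p = 1.64e-05). Procr, the receptor that presents protein C to the thrombin and thrombomodulin complex, went the opposite way. It read 7.36, 6.85 and 7.03 on the carotid body arrays and 10.21, 10.70 and 10.84 on the adrenal medulla arrays, a difference of -3.50 (adjusted p = 5.26e-05). Procr also is read in cells other than endothelium, and its source here was not tested. Myct1, Klf4 and Heg1 were higher by 2.38, 2.12 and 2.06. The haematopoietic and endothelial factor Gata2 was lower at -1.54 (adjusted p = 0.00242). Without cohort 2, Heg1 and Gata2 lost their calls, at 2.00 and -1.56, with adjusted p-values of 0.0611 and 0.0547.

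The 4 lymphatic genes did not move as a group: Lyve1 was higher, Prox1 was lower, and Pdpn and Flt4 were not called. Lyve1, a hyaluronan receptor of lymphatic endothelium and of some tissue macrophages, read 9.54, 8.84 and 8.75 on the carotid body arrays and 6.23, 7.42 and 7.65 on the adrenal medulla arrays. It was 3.85-fold higher (adjusted p = 0.00917) with no overlap, and its second probe set was called as well, at 1.52. The size rested in part on cohort 1: the cohort differences were 3.30, 1.43 and 1.10, and without cohort 1 the difference was 1.27. Without cohort 2 it was 2.20, against 1.95 over all arrays, and no longer passed the test (adjusted p = 0.0838).

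Between the tissues, macrophage markers moved in part with Lyve1. Of 14 measured, 5 were higher in carotid body and none was lower, with a median of 0.42. Their summed intensity was 9873, 9576 and 8646 on carotid body arrays 1, 2 and 3, where Lyve1 fell in the same order. It was 5552, 5111 and 4494 on adrenal medulla arrays 1, 2 and 3, where Lyve1 rose. Of the 5, Cd163 at 2.72, Folr2 at 2.09 and Mrc1 at 1.66 mark the resident macrophages that often carry Lyve1. The other 2 called were F13a1, at 4.68, and Csf1r, the growth factor receptor of macrophages, at 1.48. The macrophage markers Adgre1 and C1qa differed by 0.29 and 0.10 and were not called. Their part in the Lyve1 difference was not tested.

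Prox1, the homeobox factor that specifies lymphatic fate, had the most negative difference of the 37 as measured. It read 6.23, 4.27 and 4.09 on the carotid body arrays and 8.37, 8.31 and 8.41 on the adrenal medulla arrays, a difference of -3.50, 11.3-fold lower in carotid body (adjusted p = 0.0027). Carotid body arrays 2 and 3 lie near the floor of the scale, where a low signal cannot be told from none, so this fold is not exact. Carotid body array 1 was the highest of its tissue and is the array that held adrenocortical RNA. Without it the difference was -4.18. Without cohort 2 it was -3.23, which did not pass the test (adjusted p = 0.0656). Of its 3 probe sets 2 were called lower, and the brightest gave the largest difference. Adrenocortical markers moved with it: 10 of 11 were lower in carotid body (11 without carotid body array 1, 1 without cohort 2), with a median of -4.41 and a summed intensity of 31256, 1988 and 1543 on carotid body arrays 1, 2 and 3 against 74195 to 100471 in adrenal medulla. Markers of chromaffin and glomus cells were lower as well, 7 of 10, with a median of -1.49. Prox1 is also made outside lymphatic vessels, in endocrine and other epithelial cells, and the part of these cells in its value was not tested.

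Flt4, the receptor for VEGF-C, read 8.18, 8.12 and 7.95 on the carotid body arrays and 7.94, 7.91 and 7.39 on the adrenal medulla arrays, a difference of 0.34 with an interval of -0.06 to 0.74 (adjusted p = 0.21). Pdpn, the mucin podoplanin, differed by 0.34 with an interval of -0.19 to 0.86 (adjusted p = 0.343). Relative to the core, both stood at -0.52, with an adjusted p of 0.0372 for Flt4 and 0.0885 for Pdpn, under the 2-fold threshold. Mesothelium also makes Pdpn. Of 8 mesothelial markers none was called higher and 1 was lower, Lrrn4 at -1.72, and their summed intensity was 158, 161 and 382 on carotid body arrays 1, 2 and 3 and 172 to 207 in adrenal medulla. The defining marker Msln read 3.48 to 3.80 on the carotid body arrays and 3.60 to 4.05 on the adrenal medulla arrays.

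**Figure D4:**
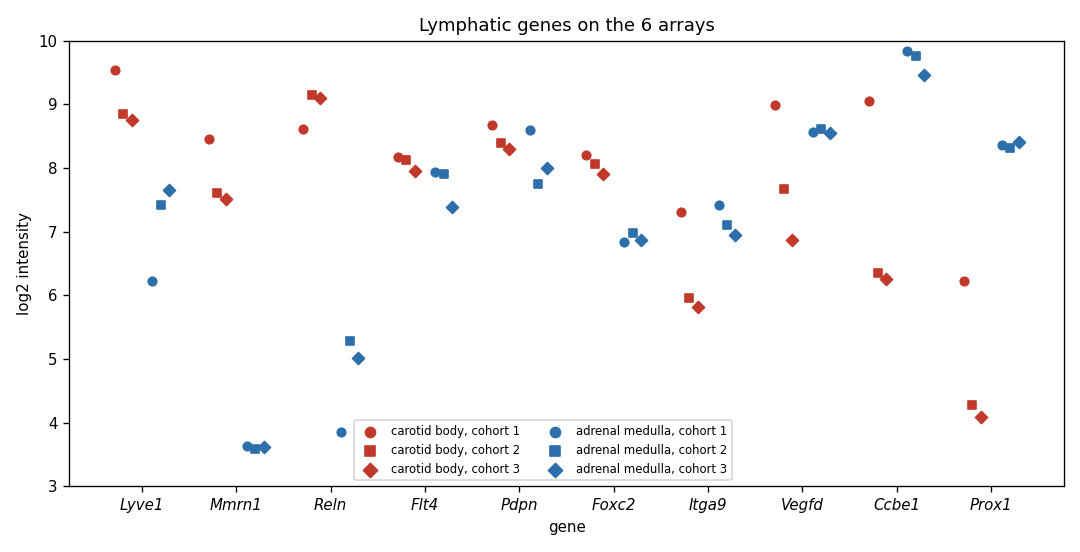
Log2 intensity (y axis) of 10 lymphatic or lymphatic growth genes (x axis) on the 3 carotid body arrays, red and left, and the 3 adrenal medulla arrays, blue and right, with a marker shape per cohort. Mmrn1 and Reln lie at 7.50 or more on every carotid body array and at 5.28 or less on every adrenal medulla array, while Prox1 and Ccbe1 are higher on carotid body array 1 than on arrays 2 and 3.

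In the wider lymphatic list 19 of 20 genes were measured, with 5 higher, 3 lower and a median of 0.51. Mmrn1, a multimerin of lymphatic endothelium that platelets and venous endothelium also make, read 8.46, 7.61 and 7.50 on the carotid body arrays and 3.64, 3.59 and 3.62 on the adrenal medulla arrays (adjusted p = 4.89e-05). Reln, reelin, which collecting lymphatics secrete, read 8.60, 9.15 and 9.10 on the carotid body arrays and 3.86, 5.28 and 5.02 on the adrenal medulla arrays (adjusted p = 0.000264). The differences were 4.24 for Mmrn1 and 4.23 for Reln on these values. The adrenal medulla values of Mmrn1, and the lowest of Reln, lie near the floor of the scale, where differences are compressed, so neither size is exact. Another probe set of each gene was not called, at 0.17 for Mmrn1 and 0.28 for Reln. Fgl2, a secreted fibrinogen-like protein that macrophages also make, differed by 3.69 (adjusted p = 1.69e-05).

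Lower in that list besides Prox1 were Gata2, given above, and Ccbe1, a secreted protein needed to activate VEGF-C. Ccbe1 read 9.05, 6.34 and 6.26 on the carotid body arrays and 9.83, 9.76 and 9.46 on the adrenal medulla arrays, a difference of -2.47 (adjusted p = 0.0353) that was -3.38 without carotid body array 1 and lost its call without any other single array. Like Prox1, it was highest in carotid body on the array with adrenocortical RNA. Itga9, the integrin of lymphatic valves, and Vegfd, the second ligand of Flt4, were singled out for the same order and were not called. Without carotid body array 1 they were called lower, at -1.27 and -1.30, and the count of lower genes in the list was 5, against 0 without cohort 2.

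The ligands split. Vegfc, the growth factor of lymphatic endothelium, read 9.76, 9.46 and 9.76 on the carotid body arrays and 6.22, 5.98 and 6.67 on the adrenal medulla arrays, 10.3-fold higher (adjusted p = 4.89e-05). All 3 of its probe sets were called, with differences of 3.05 to 3.48, and it stood 2.52 above the core (adjusted p = 6.55e-06). Which cells carried Vegfc was not tested, so its place above the core need not be a trait of endothelium. Vegfa, the main growth factor of blood endothelium, read 7.72, 8.28 and 8.86 on the carotid body arrays and 9.08, 9.07 and 8.52 on the adrenal medulla arrays. Its ranges overlapped, and its difference was -0.60 with an interval of -1.28 to 0.08 (adjusted p = 0.189). Without cohort 3, where carotid body was the brighter tissue, it was called lower at -1.07 (adjusted p = 0.0232). The interval of Vegfc, 2.92 to 3.82, lay wholly above that of Vegfa.

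Across the VEGF ligands and receptors, 14 genes measured, 3 were higher and none lower, with a median of 0.21. Besides Vegfc these were Pgf, placental growth factor, a ligand of Flt1, and Nrp1, the coreceptor neuropilin. Pgf read 8.29, 9.01 and 8.63 on the carotid body arrays and 5.36, 5.31 and 5.71 on the adrenal medulla arrays (adjusted p = 7.9e-05), and Nrp1 differed by 1.61 (adjusted p = 0.000513). Which cells carried Pgf was not tested. Vegfb, the other ligand of Flt1 alone, was singled out after its values were seen: it differed by -0.95 (adjusted p = 0.00332), under 2-fold, and passed the threshold of size without adrenal medulla array 3, at -1.05, or without cohort 1, at -1.01. Pgf and Vegfb, both ligands of Flt1, thus lay on opposite sides of 0, while Kdr, and Flt1 on its brightest probe set, were each within 2-fold.

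The angiopoietins act on Tek, Angpt1 as its agonist and Angpt2 as a context-dependent antagonist. Angpt1 read 6.81, 7.02 and 6.98 on the carotid body arrays and 5.19, 5.55 and 5.33 on the adrenal medulla arrays, 2.99-fold higher (adjusted p = 0.000269). The adrenal medulla values are near the array median of 5.16 to 5.18, so that a low signal there cannot be told from none. The second Angpt1 probe set, at 3.70 to 4.07 on the carotid body arrays and 3.67 to 3.82 on the adrenal medulla arrays, was near the floor and was not called. Angpt2 read 7.25, 7.21 and 7.46 on the carotid body arrays and 6.37, 6.99 and 6.84 on the adrenal medulla arrays, a difference of 0.58 with an adjusted p of 0.052, or 0.0444 with the cohort as a replicate block. The interval of Angpt1, 1.27 to 1.89, lay above that of Angpt2, 0.16 to 0.99. Of 12 genes of the angiopoietin and Tie list 4 were higher and 1 lower, with a median of 0.55. Angptl1, an angiopoietin-like protein, was higher by 3.02 (adjusted p = 0.000108), Angptl7 by 1.35 and Angpt4 by 1.27. The call of Angptl7 was lost without cohort 2, at 1.38 (adjusted p = 0.0903), and that of Angpt4 on the mean of its probe sets, at 0.75. Angptl6 was lower at -1.09 (adjusted p = 0.0157), a call lost when carotid body array 2, adrenal medulla array 2 or adrenal medulla array 3 was left out, or cohort 2 or 3. Pericytes and fibroblasts, whose markers are given above, are known sources of Angpt1 and of the angiopoietin-like proteins.

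Endothelium also reads BMP ligands through the receptor Acvrl1 with Eng. Of 12 genes of this pathway measured, 6 were higher in carotid body and none lower, with a median of 1.04. Of its immediate targets Id1 and Id3 were higher by 1.76 and 1.62, while Id2 differed by -0.39 and was not called. Also higher were its inhibitor Smad6, by 1.66, and its endothelial target Tmem100, by 1.60, or 0.96 and not called on the mean of its probe sets. The receptors Acvrl1 and Bmpr2, singled out after their values were seen, were called higher as well, at 1.57 and 1.08. On the mean of its probe sets Bmpr2 was at 0.61 and not called. Id1 read 11.12, 11.34 and 11.07 on the carotid body arrays and 9.65, 9.46 and 9.14 on the adrenal medulla arrays (adjusted p = 0.000332). None of the 12 was called above the core and 2 were called below it, Id2 and Gdf2. Of all genes 2.35% were called above the core and 39.3% below it. Between the tissues neither Id2 nor Gdf2 was called, and Gdf2 differed by -0.23.

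Set against the core, 8 of the 29 other genes were above it, where 2.35% of all genes were, and 4 were below it, where 39.3% of all genes were. Subtraction shifted all genes down, which lowered the first share and raised the second. Neither count set against its share is thus a finding about these genes. Those above were Cldn5, Sox17, Vegfc, Aplnr, Vwf, Cd34, Bmx and Lyve1, from 3.11 for Cldn5 to 1.09 for Lyve1. Those below were Prox1 at -4.35, Esm1 at -2.96, Vegfa at -1.46 and Emcn at -1.37. Vegfa and Emcn were not called between the tissues, and the core to which they were compared differed by 0.85. The other 17 genes were within 2-fold of the core or did not pass the test, and the largest of these in size was Podxl at 0.88.

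**Figure D5:**
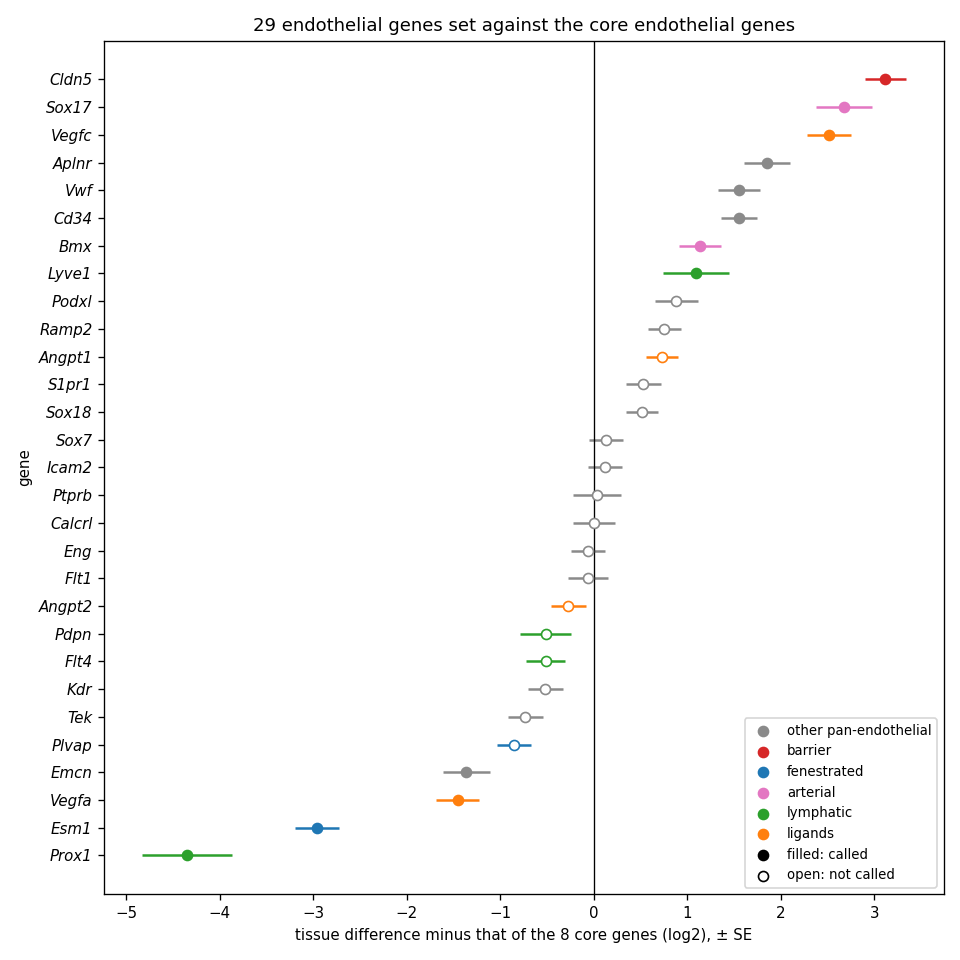
Difference between carotid body and adrenal medulla (log2, x axis) of 29 genes (y axis) after the mean of the 8 core endothelial genes was subtracted on each array, with bars of 1 standard error. Filled points are called: 8 lie above the core, led by Cldn5 at 3.11, and 4 below it, led by Prox1 at -4.35.

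The 37 genes were about equally reproducible in both tissues, with a median SD over the 3 arrays of 0.22 on the carotid body arrays and 0.23 on the adrenal medulla arrays. Within carotid body, array 1 gave the lowest value of the 3 for 23 of the 37 genes and array 3 the highest for 16. Within adrenal medulla, array 1 gave the lowest for 14, array 2 for 9 and array 3 for 14. All 3 cohort pairs had carotid body brighter for 29 genes and adrenal medulla brighter for 2, Esm1 and Prox1. Over all 18193 genes, this held for 4565 and 6429 genes. The widest spreads were those of Prox1 in carotid body, with an SD of 1.19, and of Lyve1 in adrenal medulla, with an SD of 0.76.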

How the data were processed

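Per the submitters' processing notes, the authors ran Affymetrix Expression Console. The version, summarisation and normalization of that step were not given in the sources used here. The deposited values, 1 for each probe set on each array, are log2 intensities, a scale read from their span of 2.70 to 14.97, and were not normalized again. Of 45101 probe sets 64 controls were left out. Platform annotation gave 34945 of the rest 1 symbol, 932 several and 9160 none, and multi-symbol probe sets were left unnamed. The 45037 probe sets entered lmFit and eBayes of limma 3.58.1, under R 4.3.3, with 2 tissues and no block, and two-sided p-values were adjusted by Benjamini-Hochberg. The fit was repeated after subtracting the mean of the 8 core genes (Pecam1, Cdh5, Tie1, Esam, Egfl7, Erg, Clec14a and Mmrn2) from each array. The script was tested on simulated data. Intervals are 95% limits from limma, and summed intensities add the antilog of a list's values.

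The members and lists were chosen with earlier results of these data known. Every member is named, and of each further list up to 4 called genes in each direction; other genes are said to be singled out. The lists overlap in part. Pools of 1 tissue came from different cohorts, so the spread between arrays holds animal and technical variation. The series states that equal group numbers mark the same cohort of animals. Deviations from the tissue means correlated at 0.22, 0.0836 and 0.163 between same-numbered arrays and at -0.214 to 0.101 between others. Alternatives were the cohort as a replicate block, quantile normalization, median centring, leaving out the dimmer 50% of probe sets, robust eBayes with an intensity trend, array weights, other probe set rules, other core sets, and leaving out each array and cohort. Promoters are RefSeq's, of GRCm38.p6, matched by symbol.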

Additional observations from a re-analysis of the deposited data

How the results depend on the processing

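With the cohort as a replicate block, as the stated pairing allows, 16 of the 37 genes were higher and 2 lower, and 8 stood above the core and 4 below, as without it; Angpt2 moved to an adjusted p of 0.0444, still under 2-fold. Counts of higher genes lay between 12 and 20 under the other settings: 20 with quantile normalization, 15 with median centring or without dim probe sets, 16 with trend and robust variances, 17 with array weights, 12 with either the mean of a gene's probe sets or its probe set of smallest difference, and 14 to 19 when an array or cohort was left out. With no threshold of size the count was 25. The count of lower genes, 2 in the main fit, was 1 with the probe set of smallest difference and 1 to 3 when an array or cohort was left out. With the median of the core, or with other pan-endothelial genes as the core, the count above it was 6. With arrays left out it was 7 to 8. Below the core the counts were 6, 6 and 4, in the same order. When the other pan-endothelial genes formed the core, they were themselves among the genes counted, so that setting is no independent check. Of the 18 called genes 11 kept their call in each of 17 alternatives, and Bmx in the 16 that measured it, since its probe set was among the dim ones left out; Cdh5, Mmrn2, Podxl, Lyve1, Prox1 and Angpt1 lost it in some. Mmrn2, closest to the threshold, lost it in 6, among them median centring at 0.89 and without cohort 2 at 0.91. Podxl without cohort 2 was at 1.57, with an adjusted p of 0.0636. Of 69 genes called in the wider lists outside the 37, 17 lost the call without cohort 2, 17 on the mean of a gene's probe sets and 30 on the probe set of smallest difference.

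Signs turned for 4 genes, none of them called. Tie1 was -0.0075 with median centring and ran from -0.29 to 0.44 with arrays or cohorts left out. Plvap was 0.056 with quantile normalization, 0.0010 with array weights, and -0.071 to 0.063 with arrays or cohorts left out. Erg was -0.074 and Calcrl -0.11 on the probe set of smallest difference, which is dim for both. The causes were not tested. The planned choice of pseudocount was for linear values and was not run. Without detection calls, low signal cannot be told from none. That bears on Bmx, Mmrn1, Reln, Angpt1, Selp and Pgf in adrenal medulla and on Esm1 and Prox1 in carotid body. It bears on Mfsd2a and Gja5 in both tissues. Having 3 arrays per tissue also limits the precision.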

Other observations

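Proliferation genes set 1 array apart. Of 9 measured, none was called between the tissues, and their median difference was 0.73. Their mean log2 intensity was 4.82, 4.94 and 7.10 on carotid body arrays 1, 2 and 3 and 4.59, 4.98 and 5.58 on adrenal medulla arrays 1, 2 and 3. Mki67, a marker of cycling cells, read 5.71, 5.70 and 8.51 in carotid body and at most 6.36 in adrenal medulla. Carotid body array 3 was also the array on which the core endothelial genes were brightest, at 8.92. Which cells carried the proliferation genes was not tested.

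Adrenal medulla array 1 gave the lowest value of its tissue for both Lyve1, at 6.23 against 7.42 and 7.65, and Reln, at 3.86 against 5.28 and 5.02, while Mmrn1 was flat over the 3 arrays at 3.59 to 3.64.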
